A study of Mus musculus with 2 samples.

Results

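The genes Mir23a, Mir27a, Mir24-2, Mir23b, Mir27b and Mir24-1 form a pair of paralogous microRNA (miRNA) clusters, Mir23a, Mir27a and Mir24-2 on chromosome 8 and Mir23b, Mir27b and Mir24-1 on chromosome 13. They were taken by gene name in the GENCODE M21 annotation and make up 6 of the 2202 miRNA genes counted. Small RNA (insert size under 30 nucleotides) was sequenced from total RNA of tissue labelled as layer of hippocampus. The mice were females of the strain B6CASTF1/J, a first-generation cross between C57BL/6J and CAST/EiJ, aged 36 days. There were 2 libraries in 1 group, biological replicates 1 and 2, with no treatment, genotype or age contrast. The labels give both libraries the same donor entry and different biosample entries, so separate animals are not assured and the differences between libraries may be partly technical.

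A miRNA is cut from a hairpin in a longer primary transcript, first by Drosha in the nucleus and then by Dicer, and guides Argonaute to messenger RNAs that pair with its seed, bases 2 to 8. The mir-23, mir-27 and mir-24 hairpins of a cluster are known to be transcribed together as a single primary transcript. The clusters are studied in blood vessel growth, where they are expressed in endothelial cells, and miR-23a is known to promote oligodendrocyte differentiation by repressing lamin B1. MiR-27 is known as a repressor of adipocyte differentiation and miR-24 as a regulator of cell cycle genes.

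The mature sequences are shown because they determine which reads can be told apart between the clusters. All sequences are from RefSeq (GRCm38.p6), where all 6 hairpins matched by symbol with the coordinates of GENCODE. Capitals mark the seed. The 3′ arms, the arms usually loaded for these families, read
miR-23a-3p: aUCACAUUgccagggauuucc
miR-27a-3p: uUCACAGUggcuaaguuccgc
miR-27b-3p: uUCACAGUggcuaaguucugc
miR-24-3p (in both Mir24-2 and Mir24-1): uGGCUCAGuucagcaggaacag
and the 5′ arms read
miR-23a-5p: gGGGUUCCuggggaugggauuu
miR-23b-5p: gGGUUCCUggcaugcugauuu
miR-27a-5p: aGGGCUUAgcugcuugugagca
miR-27b-5p: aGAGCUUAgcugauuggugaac
miR-24-2-5p: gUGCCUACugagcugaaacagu
miR-24-1-5p: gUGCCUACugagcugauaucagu
MiR-27a-3p and miR-27b-3p share the seed UCACAGU and differ by a single substitution, C19U, counted from 1 at the 5′ end of miR-27a-3p. MiR-24-3p is the same 22 bases in both clusters, so its sequence names the family but not the gene. MiR-24-2-5p and miR-24-1-5p share the seed UGCCUAC and their first 16 bases and differ beyond them. The mir-23 and mir-27 5′ arms have a different seed in each cluster, GGGUUCC against GGUUCCU and GGGCUUA against GAGCUUA.

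The longest stretch that paralogous hairpins share lies around the 3′ arm in all 3 pairs. Capitals mark that stretch in the windows below, each at most 30 bases long, which are shown because a read inside the capitals fits both clusters.
Mir23a, chr8:84208557-84208586, plus strand: ucacAAAUCACAUUGCCAGGGAUUuccaac
Mir27a, chr8:84208721-84208750, plus strand: gucgUGUUCACAGUGGCUAAGUUCcgcccc
Mir27b, chr13:63300754-63300783, plus strand: gcuuUGUUCACAGUGGCUAAGUUCugcacc
Mir24-2, chr8:84208871-84208900, plus strand: gCACUGGCUCAGUUCAGCAGGAACAGGAGu
Mir24-1, chr13:63301247-63301275, plus strand: aCACUGGCUCAGUUCAGCAGGAACAGGAG
The Mir23b hairpin holds the same 20 bases as the capitals of Mir23a. The shared stretch was 20 bases for mir-23 and for mir-27 and 28 bases for mir-24, where it holds all of miR-24-3p. Over the whole hairpin, identity in a global alignment was 73.8% for Mir23a and Mir23b, 61.1% for Mir27a and Mir27b and 54.5% for Mir24-2 and Mir24-1. The chromosome 8 hairpins were richer in G and C, at 56.0% for Mir23a, 59.8% for Mir27a and 61.7% for Mir24-2 against 48.6%, 47.9% and 51.5% for Mir23b, Mir27b and Mir24-1.

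Both clusters have the order mir-23, mir-27, mir-24 on the plus strand (assembly mm10). Mir23a (ENSMUSG00000065611.1) lies at chr8:84208518-84208592, Mir27a (ENSMUSG00000065444.1) at chr8:84208672-84208758 and Mir24-2 (ENSMUSG00000065541.1) at chr8:84208815-84208921. The chromosome 8 cluster spans 404 bases and lies between protein-coding genes, 23300 bases from Nanos3 and 1756 bases from Zswim4, and only the last 2 bases of Mir24-2 overlap an annotated exon, of the noncoding gene Gm26532. Mir23b (ENSMUSG00000065599.2) lies at chr13:63300484-63300557, Mir27b (ENSMUSG00000065475.2) at chr13:63300712-63300784 and Mir24-1 (ENSMUSG00000105904.1) at chr13:63301208-63301275. The chromosome 13 cluster spans 792 bases inside 2010111I01Rik (the aminopeptidase gene Aopep) on the same strand and opposite an intron of Fancc, a Fanconi anaemia gene. Mir23b is intronic in every overlapping transcript of 2010111I01Rik. Mir27b lies wholly, and Mir24-1 in part, in exons of a transcript annotated for nonsense-mediated decay, where the overlap is marked as UTR, and another such transcript holds all of Mir24-1 in an exon. The gap between the mir-27 and mir-24 hairpins was 56 bases on chromosome 8 and 423 bases on chromosome 13. Each mir-24 hairpin lies opposite another miRNA gene on the minus strand, Mir3074-2 on chromosome 8 and Mir3074-1 on chromosome 13.

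**Figure D1:**
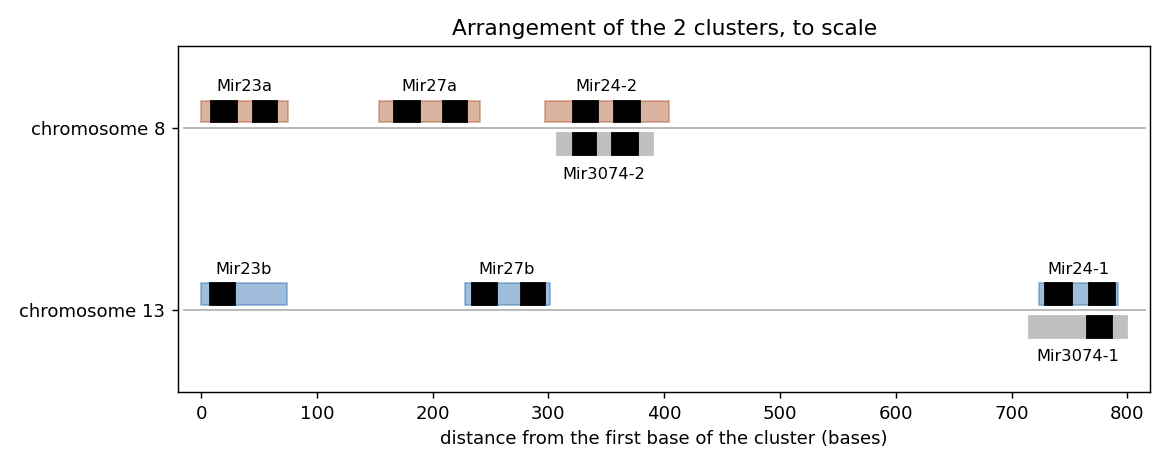
Map of the chromosome 8 (brown) and chromosome 13 (blue) clusters to scale, with the distance in bases from the first base of Mir23a or Mir23b on the x axis. Light boxes are hairpins above the line on the plus strand, grey boxes are the Mir3074 hairpins on the minus strand, and black boxes are the mature sequences held in RefSeq; the clusters span 404 and 792 bases.

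Values are sense reads per gene and counts per 1000000 sense reads on miRNA genes (CPM), of which there were 2928141 in replicate 1 and 3644157 in replicate 2. Of all reads, 30.5% and 34.7% were assigned in this way, while 3734600 and 4807740 reads were marked as having several places and were counted for no gene. How alike in fit these places had to be is not given in the sources used here. As a check of the tissue, 8 of 12 genes of a neuronal list were detected (at least 10 reads in each library), with a summed level of 25019 and 31584 CPM and 1 gene, in replicate 2, at 0. Summed levels of the astrocyte list were 18090 and 12595 CPM, of the oligodendrocyte list 5352 and 2536 CPM, of the vascular list 29656 and 22247 CPM, of the microglia and leukocyte list 1589 and 1881 CPM, of the erythroid list 1176 and 340 CPM and of the epithelial list 47.1 and 98.2 CPM, in replicates 1 and 2. Reads that fit several genes are left out of these sums, and the neuronal list holds several Mir124a and several Mir9 genes. The sums therefore do not rank the cell types by level. All intervals were computed from read counts without a term for differences between libraries, so they cover counting error only. No molecular identifiers entered the counts, so copies of a molecule were not told from separate molecules.

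All 6 genes were detected, and together they took 3.01% (replicate 1) and 3.12% (replicate 2) of the assigned reads, a mean of 3.06% ± 0.0809 (SD, n = 2). Nearly all of these counted reads belonged to the mir-23 genes. Reads that fit several genes are left out, among them those of miR-24-3p, which is identical in Mir24-2 and Mir24-1. The split below therefore does not give the part of each family in the tissue. Mir23a and Mir23b held 94.7% of the reads of the 6 genes in replicate 1 and 94.2% in replicate 2, Mir27a and Mir27b 5.16% and 5.63%, and Mir24-2 and Mir24-1 0.175% and 0.178%. Of the 2202 genes, 376 (among them the 6) were detected and 1479 had no read in either library.

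Mir23b, whose hairpin shares a stretch of 20 bases with that of Mir23a, was the highest of the 6, with 59834 reads (20434 CPM) in replicate 1 and 76914 reads (21106 CPM) in replicate 2. It ranked 9 and 10 among all miRNA genes in replicates 1 and 2. Mir23a followed with 23467 reads (8014 CPM) and 30165 reads (8278 CPM), at ranks 25 and 26. Both mir-23 genes were nearly level between the libraries, and their ranges did not overlap.

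Mir27b had 4341 reads (1483 CPM) in replicate 1 and 5889 reads (1616 CPM) in replicate 2, at rank 77 in both. Its chromosome 8 counterpart Mir27a had 200 reads (68.3 CPM) and 513 reads (141 CPM), at ranks 216 and 185. Replicate 2 was the higher for Mir27a, by 2.06-fold, the largest difference among the 6 genes. Its mean was 105 ± 51.2 CPM, against 1549 ± 94.4 CPM for Mir27b (SD, n = 2).

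Mir24-2 had 116 reads (39.6 CPM) in replicate 1 and 143 reads (39.2 CPM) in replicate 2. Mir24-1 had 38 reads (12.98 CPM) and 59 reads (16.2 CPM). These low counts are reads with a single place. The sequence of miR-24-3p is identical in both genes, and how many of the reads with several places carry it is not given in the gene counts, so the counts say little of the amount of miR-24 in the tissue. Reads were counted per hairpin, and which arm the counted reads came from was not told apart. Opposite Mir24-1, Mir3074-1 had 20 and 42 reads, and opposite Mir24-2, Mir3074-2 had 2 and 0 reads. The annotated mature miR-3074-5p (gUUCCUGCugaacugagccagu, seed in capitals) overlaps 20 bases of miR-24-3p on the other strand and is itself identical in both Mir3074 genes, so its reads have several places as well.

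In reads with a single place, the order of the levels was Mir23b, Mir23a, Mir27b, Mir27a, Mir24-2 and Mir24-1 in both libraries. No 2 neighbours in this order overlapped across the libraries, and the exact Clopper-Pearson 95% intervals of neighbours in the same library did not overlap. The closest neighbours were Mir27a and Mir24-2 in replicate 1, at 59.2 to 78.5 CPM and 32.7 to 47.5 CPM. A read in such a library spans a mature arm rather than a part of a long transcript, so the counts were not divided by length. Per base of hairpin the order stayed the same, from 276 and 285 CPM per base for Mir23b to 0.191 and 0.238 for Mir24-1 in replicates 1 and 2.

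**Figure D2:**
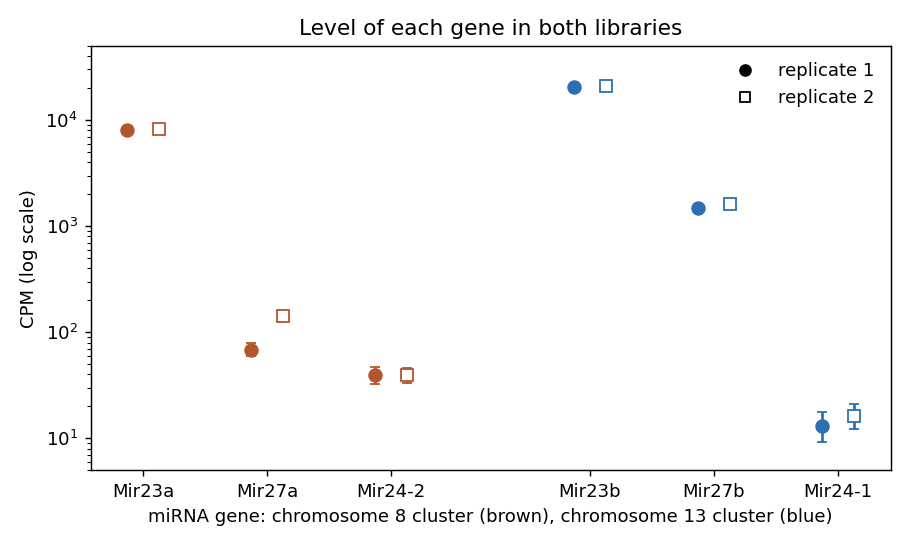
CPM on a log scale of each gene of the chromosome 8 cluster (brown) and the chromosome 13 cluster (blue) in replicate 1 (filled circles) and replicate 2 (open squares); bars are exact 95% intervals for counting error and are hidden by the symbol where short. Levels of reads with a single place fall from mir-23 to mir-27 to mir-24 in both clusters. Mir27a is the gene whose libraries stand apart, at 68.3 and 141 CPM.

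The chromosome 13 cluster held more reads with a single place than the chromosome 8 cluster, in a ratio close to constant between the libraries. Mir23b, Mir27b and Mir24-1 summed to 21930 and 22738 CPM, and Mir23a, Mir27a and Mir24-2 to 8122 and 8458 CPM. The chromosome 13 share of the reads of the 6 genes was 73.0% in replicate 1 (exact 95% interval 72.7% to 73.3%) and 72.9% in replicate 2 (72.6% to 73.1%), or 2.70 and 2.69 reads for each chromosome 8 read. With 2 libraries of 1 group an exact permutation test cannot reach the threshold of 0.05, so no test of the clusters was made.

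The 3 paralogous pairs did not share this ratio. Within mir-23, Mir23b held 71.8% of the reads of the pair in replicate 1 (71.5% to 72.1%) and 71.8% in replicate 2 (71.6% to 72.1%). The odds ratio between the libraries was 1.00 (exact 95% interval 0.980 to 1.02), so a shift of the mir-23 pair beyond this interval was not seen. Within mir-27, Mir27b held 95.6% (94.96% to 96.2%) in replicate 1 and 92.0% (91.3% to 92.6%) in replicate 2, that is 21.7 and 11.5 reads for each Mir27a read. The odds ratio of the mir-27 pair was 0.529 (0.445 to 0.627), further from 1 than counting error alone allows. Reads inside the stretch that the mir-23 hairpins share, or that the mir-27 hairpins share, fit both genes. Such reads do not enter the mir-23 and mir-27 shares, whose intervals cover the counted reads only. Within mir-24 the order of the counted reads turned round, with Mir24-1 of chromosome 13 at 24.7% (18.1% to 32.3%) in replicate 1 and 29.2% (23.0% to 36.0%) in replicate 2. Reads of miR-24-3p that fit both genes do not enter this share, so it does not give the part of each gene in miR-24. The odds ratio of the mir-24 pair was 1.26 (0.763 to 2.09), a wide interval that holds the mir-23 value and lies above the mir-27 interval.

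**Figure D3:**
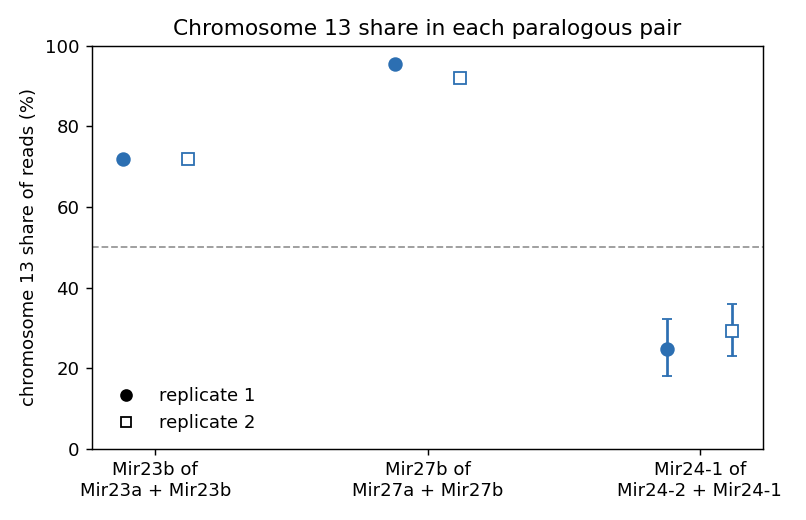
Share of reads (percent) from the chromosome 13 gene in each paralogous pair, in replicate 1 (filled circles) and replicate 2 (open squares), with exact 95% intervals for counting error; the dashed line marks equal reads from both genes. Mir23b stands at 71.8% in both libraries, Mir27b at 95.6% and 92.0%, and Mir24-1 at 24.7% and 29.2%. Reads that fit both genes of a pair are left out.

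Genes of a cluster, although known to come from a shared primary transcript, differed widely in reads with a single place. On chromosome 8, Mir23a held 98.7% and 97.9% of the cluster's reads, Mir27a 0.841% and 1.66% and Mir24-2 0.488% and 0.464%, in replicates 1 and 2. On chromosome 13, Mir23b held 93.2% and 92.8%, Mir27b 6.76% and 7.11% and Mir24-1 0.0592% and 0.0712%. The shares of Mir24-2 and Mir24-1 leave out reads that fit both genes, whose number is not known. They therefore do not give the part of either gene in the mature products of its cluster. For each Mir27a read there were 117 Mir23a reads in replicate 1 (exact 95% interval 102 to 136) and 58.8 in replicate 2 (53.9 to 64.3). For each Mir27b read there were 13.8 Mir23b reads (13.4 to 14.2) and 13.1 (12.7 to 13.4). In the counted reads, the excess of mir-23 over mir-27 was thus larger on chromosome 8 than on chromosome 13 in both libraries.

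The libraries were compared gene by gene by testing each gene's reads against the library totals (exact binomial test, two-sided, Benjamini-Hochberg adjustment over all 474 genes with a summed count of at least 10). This test compares the 2 libraries, not conditions, with counting error as the only noise. It called 58.0% of all tested genes, 31.6% as higher in replicate 2 and 26.4% as higher in replicate 1. Of the 6 genes, 4 were called, a share near that background, all 4 higher in replicate 2. Mir27a was 2.06-fold higher there (exact 95% interval 1.75 to 2.44, adjusted p = 6.91e-19, exact binomial test). Mir27b was 1.09-fold higher (1.05 to 1.13), Mir23a 1.03-fold (1.02 to 1.05) and Mir23b 1.03-fold (1.02 to 1.04). Mir24-2, at 0.991-fold (0.770 to 1.28), and Mir24-1, at 1.25-fold (0.816 to 1.93), were not called.

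Apart from Mir27a, these were small differences. The median size of the log2 ratio (pseudocount of 1 CPM) was 0.09 over the 6 genes and 0.44 over all tested genes, and the signed medians were 0.09 and 0.04. Of the 474 tested genes, 20 had a smaller log2 ratio in size than Mir23a, 21 than Mir23b, 9 than Mir24-2, 59 than Mir27b, 175 than Mir24-1 and 389 than Mir27a. The calls of the mir-23 genes hung on scaling, since TMM scaling left only Mir27a and Mir27b called. Totals that leave out Mirlet7g, the most abundant gene, left Mir27a called higher and Mir23b called lower in replicate 2 and turned the log2 ratios of Mir23a and Mir23b to -0.023. Mir27a was called higher in replicate 2 under each scaling, filter and strand setting tried. Its log2 ratios ran from 0.96 to 1.04, the highest with a pseudocount of 0.1 CPM, which does not enter the test.

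**Figure D4:**
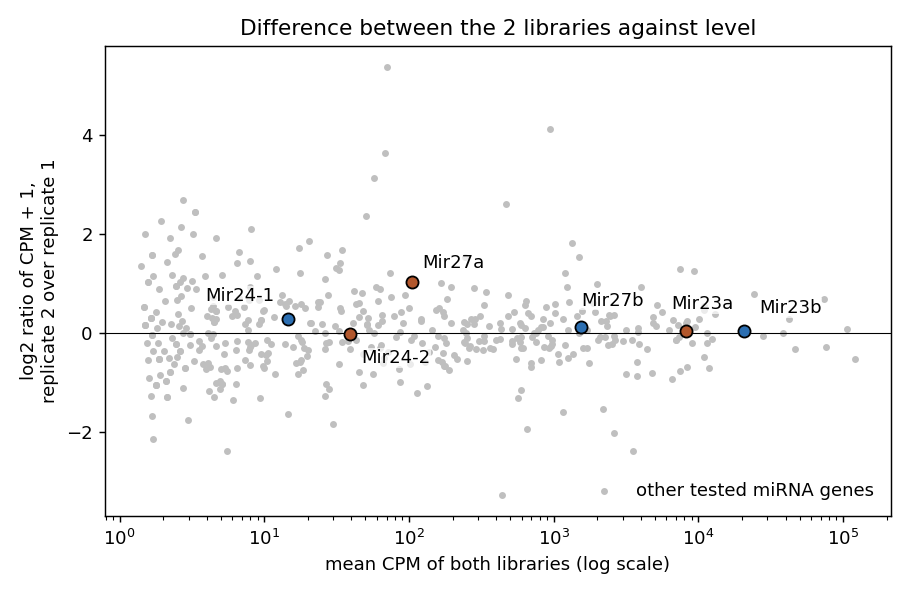
Log2 ratio of CPM + 1, replicate 2 over replicate 1, against mean CPM (log scale) for 474 tested miRNA genes (grey), with the chromosome 8 genes in brown and the chromosome 13 genes in blue. Mir27a, at 1.03, lies above the other 5, which lie between -0.01 and 0.30.

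Lists of miRNAs of cell types also held genes called between the same libraries, and their part in the levels of the 6 genes was not tested. Of all tested genes 58.0% were called, 31.6% as higher in replicate 2 and 26.4% as higher in replicate 1. In either direction together, the oligodendrocyte, microglia and leukocyte, and epithelial lists were near that background. All 6 genes of the astrocyte list were called higher in replicate 1 (median log2 ratio -0.99), among them Mir29a (9631 and 8396 CPM), Mir22 (4832 and 2645 CPM) and Mir29c (1747 and 581 CPM). Of the oligodendrocyte list, 2 of 3 genes were called, both higher in replicate 1 (median -0.59): Mir219a-2 at 3229 and 1127 CPM and Mir338 at 2112 and 1399.5 CPM. All 3 erythroid genes were called higher in replicate 1 (median -0.99). Of the vascular list, 5 of 7 genes were tested, and the test called 3 as higher in replicate 2 and 2 as lower (median 0.21). The other 2, Mir126b and Mir145b, had no read in either library. In replicates 1 and 2 endothelial Mir126a stood at 14516 and 8969 CPM, Mir221 at 9338 and 5501 CPM and Mir143 of mural cells at 4740 and 6401 CPM. Of 9 tested genes of the neuronal list, the test called 5 as higher in replicate 2 and 2 as lower (median 0.47), the microglia and leukocyte list 2 and 1 of 5 (median 0.17), and the epithelial list 3 and 0 of 5 (median 0.63). In bulk tissue fewer cells of a type and less RNA per cell cannot be told apart.

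The mir-29 and mir-181 families, which also come as paralogous clusters, are set beside these genes as descriptions. Mir29c, paired with Mir29a, held 15.4% of their reads in replicate 1 (15.0% to 15.7%) and 6.48% in replicate 2 (6.21% to 6.75%), an odds ratio of 0.382 (0.362 to 0.403). The odds ratio was 0.749 (0.560 to 1.002) for Mir29b-2 and Mir29b-1. It was 1.38 (0.880 to 2.19) for Mir181a-2 and Mir181a-1 and 1.24 (0.845 to 1.84) for Mir181b-2 and Mir181b-1. The intervals of these pairs hold 1 but are much wider than that of mir-23. Summed over the mir-181 clusters, Mir181a-2 and Mir181b-2 held 76.5% of the reads in replicate 1 and 70.4% in replicate 2. The odds ratio of these sums was 0.731 (0.680 to 0.787). Mir29b-1 and Mir29b-2, which have the same miR-29b-3p, stood at 57.0 and 157 CPM in replicate 1 and 32.9 and 68.1 CPM in replicate 2, below Mir29a and Mir29c as Mir24-2 and Mir24-1 stood below the rest of their clusters. In the mir-181 family, Mir181b-2, which shares miR-181b-5p with Mir181b-1, had 1886 and 1527 CPM, against 21.5 and 14.0 CPM for Mir181b-1. Mir181a-1, which shares miR-181a-5p with Mir181a-2, had 560 and 634 CPM, against 10.9 and 17.01 CPM for Mir181a-2. Each of these genes also has an arm of its own sequence, as Mir24-2 and Mir24-1 do.

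**Figure D5:**
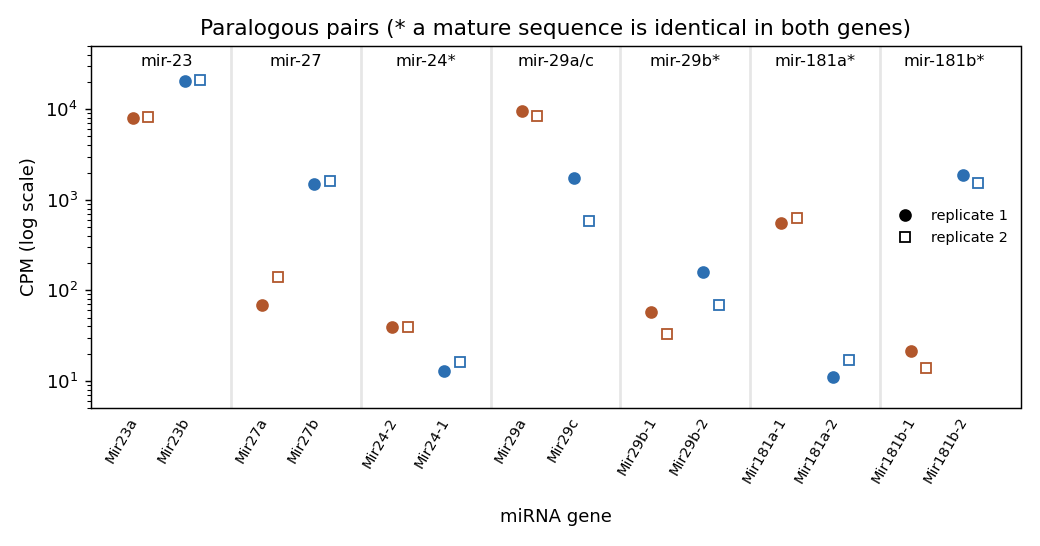
CPM on a log scale of paralogous gene pairs in replicate 1 (filled circles) and replicate 2 (open squares), with the gene named first in brown and its paralog in blue; an asterisk marks pairs with a mature sequence identical in both genes. Mir23a and Mir23b keep their distance in both libraries, Mir29c lies at 1747 and 581 CPM, and Mir181a-1 and Mir181b-2 stand well above their paralogs.

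The genes nearest in level over both libraries, by Euclidean distance in log2(CPM + 1) over only 2 samples, were Mir125a (distance 0.11) and Mir328 (0.14) for Mir23a and Mir99a (0.58) and Mirlet7e (0.595) for Mir23b. For Mir27b they were Mir872 (0.10) and Mir341 (0.11), and for Mir27a Mir129-1 (0.24) and Mir3072 (0.37). Mir24-2 lay nearest to Mir3093 (0.13) and Mir122 (0.17) and Mir24-1 to Mir5099 (0.04) and Mir9-1 (0.20). In RefSeq the seed of miR-24-3p, GGCUCAG, also stands in miR-5124b, miR-6369, miR-6410 and miR-6413, whose genes had no read in either library. The seed of miR-27a-3p and miR-27b-3p was found in no other mature mouse entry, and neither was that of miR-23a-3p.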

How the data were processed

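The authors deposited raw counts, whole numbers of reads per miRNA gene, in 3 columns without names. They were read as unstranded, sense and antisense because the middle column had the larger stranded total. The deposited notes name assembly mm10 and GENCODE M21; the aligner is not given in the sources used here. Rows without a gene name, 4 per library, held 69.5% and 65.3% of reads and entered no total or test. A chi-square between the libraries was 390 times its degrees of freedom, so they differed by more than sampling noise.

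Sense counts were divided by their library total to give CPM, and log2 ratios used a pseudocount of 1 CPM. A count of 10 reads is 3.42 and 2.74 CPM. With 1 library on either side no quasi-likelihood test could be fitted, so reads were compared with exact binomial tests (threshold 0.05, tested on simulated data). The simulated libraries differed only by counting error and set fold changes, so they do not cover the spread between these libraries. Shares and ratios have exact 95% intervals. Alternatives were TMM (edgeR 4.0.16), size factors (DESeq2 1.42.0), totals without Mirlet7g, CPM over all reads in the count table, unstranded counts, other filters, a pseudocount of 0.1, hairpin length and leaving out a replicate. Named genes were the 6 members, the Mir3074 genes, 8 genes of the mir-29 and mir-181 clusters, the 2 genes nearest in level to each member, and up to 3 genes per marker list. Mirlet7g, Mir181c, Mir181d and genes sharing a seed were added once values were known. The members and lists were chosen with earlier results of these data known. Python 3.11.15, scipy 1.17.1 and R 4.3.3 were used.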

Additional observations from a re-analysis of the deposited data

Results flagged for a closer look

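Antisense reads were seen at Mir24-1, in a column that the levels do not use, with 20 reads in replicate 1 and 42 reads in replicate 2, above the 3 counts that a count of 0 allows. They are the same numbers as the sense reads of Mir3074-1, the gene annotated on the opposite strand. Mir23a, Mir27a, Mir23b and Mir27b, which have no miRNA gene opposite, had 0 antisense reads in both libraries.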

How the results depend on the processing

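The number of the 6 genes called between the libraries was 4 as reported and 2 under TMM scaling (Mir27a and Mir27b) and with totals that leave out Mirlet7g (Mir27a and Mir23b). In the latter the log2 ratios turned to -0.0234 for Mir23a and -0.0234 for Mir23b. Divided by hairpin length, the chromosome 13 share was 72.1% for mir-23, 36.7% for mir-24 and 73.3% over the 6 genes, and it was 73.0% with counts without strand and 73.0% without the mir-24 genes; these moved by more than the spread between the libraries and none crossed equality. Counted without strand, Mir24-1 and Mir24-2 had 0 reads, as had Mir3074-1 and Mir3074-2, whose hairpins overlap them. In that count 225467 and 260829 reads were ambiguous in replicates 1 and 2. No mir-24 share or ratio could be computed without strand, and a mean count of at least 50 left out Mir24-1. Per 1000000 reads in the count table, unassigned reads included, mean levels were lower for all 6 genes, such as 6784 for Mir23b, 2661 for Mir23a and 4.79 for Mir24-1. Mir24-1 rests on 38 and 59 reads. Of 97 alternative values, 74 were the same by the rule for their kind. They kept their direction and call, stayed within the spread or, for numbers of called genes, stayed close to the reported number. Some of these could not have come out otherwise. With 2 libraries, a value that leaves out a replicate always lies within the SD, and the pseudocount changes no direction or call. No paired analysis was possible because the series has 1 group.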

Other observations

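Mir181c and Mir181d, of the mir-181 family, lie on the minus strand of chromosome 8, with Mir181c 29556 bases from Mir23a. Mir181c had 2232 CPM in replicate 1 and 2474 CPM in replicate 2, and Mir181d had 2117 and 2736 CPM. Both levels lay below those of Mir23a and above those of Mir27a and Mir24-2 in both libraries.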
